A study of Mus musculus with 2 samples.

Results

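The genes described here encode the proteins of the cytosolic ribosome in Dicer_KO mouse embryonic stem cells (mESCs). They were chosen by name and by count: a protein-coding gene was taken where its symbol starts with Rpl or Rps followed by a digit, or by p and a digit, and where its mean over both libraries was at least 100 counts, leaving out the Rps6k kinases. This took 87 of the 43629 genes listed, 53 of the large (60S) subunit, 33 of the small (40S) subunit and Rps19bp1, whose product is a binding partner of a ribosomal protein and not a subunit. Of these, 75 belong to the standard set of ribosomal proteins, 45 of the large and 30 of the small subunit, and the other 12 are Rps19bp1 and 11 paralogs, retrogenes or copies annotated as coding. A further 4 genes of the name pattern lay under the minimum. Just inside it were Rpl29, with 92 and 130 counts in replicates 1 and 2, and Rpl10-ps3, with 165 and 161 counts. Just outside it were Rpl3l, with 130 and 33 counts, and Rpl24, with 82 and 69, while Rpl9-ps1 and Rpl36-ps4 had 0 in both.

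The study deleted Dicer1, the gene of the enzyme that cuts microRNA precursors, with paired CRISPR/Cas9 guides in E14TG2a mESCs, a line of 129/Ola background derived from a blastocyst and grown in serum with LIF. PolyA RNA of 2 libraries of the genotype Dicer knockout was sequenced, passage 7 for replicate 1 and passage 4 for replicate 2. The study made 2 deletions and sorted single cells to grow clones, and the sample labels do not say which deletion or clone a library carries, so that passage, deletion, clone and library cannot be told apart. Wild-type libraries were not analysed here, so nothing below is a comparison with wild-type cells, and no p-value can be computed with 1 library at each passage. Replicate 1 held 41710122 counts on genes and replicate 2 held 41566184. Dicer1 had 1343 and 1510 counts, summed over the whole gene, which is no check of the deleted stretch. All 8 markers of embryonic stem cells were found, from 61.6 CPM (counts per M counts on genes) for Klf4 in replicate 2 to 4792 CPM for Dppa5a in replicate 1. The summed CPM in replicates 1 and 2 was 24.9 and 19.3 for 6 fibroblast genes, 18.0 and 10.5 for 5 primitive endoderm genes, 195 and 33.6 for 4 trophectoderm genes (192 and 33.0 of it Krt8), 48.8 and 52.6 for 3 neural genes and 8.61 and 4.07 for 3 mesoderm genes. Some genes of these lists were near 0, such as Col3a1 at 1 and 0 counts, Lum at 0 and 1, T at 3 and 2, and Cdx2 at 6 and 1. Others were not, and the highest value was 19.7 and 14.9 CPM in the fibroblast list and 8.01 and 3.63 in the mesoderm list. It was 14.0 and 7.65 CPM for primitive endoderm and 42.5 and 44.6 for neural genes. The part of other cell types in the values below was not tested.

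The ribosome translates messenger RNA into protein. Its small subunit holds the mRNA and reads the codons, and its large subunit joins the amino acids at the peptidyl transferase centre and passes the growing chain through an exit tunnel. Most of their proteins are needed in equal numbers, and the mRNAs are among the most abundant of dividing cells. Many of these mRNAs start with a C followed by a run of pyrimidines, the 5′ terminal oligopyrimidine (TOP) motif, through which mTOR signalling and LARP1 control their translation. In mammals the same genes have left many processed pseudogenes, intronless copies made from their spliced mRNAs, and such copies make it difficult to place short reads.

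Reads of the members and of their copies can be alike over their whole length, as a few coding sequences show. The stretches below are 60 bases long, read from GENCODE M21 transcripts (GRCm38), with bases that differ between gene and copy in capitals, and positions counted from 1 at the A of the start codon. Rps27 (ENSMUSG00000090733; chr3:90212522-90213651) and Rps27rt (ENSMUSG00000050621; chr9:114982366-114982739), a gene of 1 exon, were identical in all 252 coding bases, of which positions 1 to 60 are shown.
Rps27: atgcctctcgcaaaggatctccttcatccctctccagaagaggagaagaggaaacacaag
Rps27rt: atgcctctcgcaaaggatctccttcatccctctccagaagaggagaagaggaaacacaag
Rpl37 (ENSMUSG00000041841; chr15:5116645-5119140) and Rpl37rt differed at 1 of 291 coding bases, which lies within positions 219 to 278.
Rpl37: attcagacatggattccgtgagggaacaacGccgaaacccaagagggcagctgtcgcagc
Rpl37rt: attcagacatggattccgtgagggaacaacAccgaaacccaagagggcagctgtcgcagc
Rpl3 (ENSMUSG00000060036; chr15:80077791-80091868) and its processed pseudogene Rpl3-ps1 differed at 2 of 1209 bases, and 1 of these lies within positions 27 to 86.
Rpl3: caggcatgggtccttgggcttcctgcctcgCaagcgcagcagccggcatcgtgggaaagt
Rpl3-ps1: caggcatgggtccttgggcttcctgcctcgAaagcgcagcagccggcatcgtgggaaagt
Rpl10 (ENSMUSG00000008682; chrX:74270812-74273135) and its coding paralog Rpl10l (ENSMUSG00000060499; chr12:66283379-66284401) differed at 98 of 642 bases, 9 of them within positions 1 to 60.
Rpl10: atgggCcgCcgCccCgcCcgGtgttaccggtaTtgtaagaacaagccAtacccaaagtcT
Rpl10l: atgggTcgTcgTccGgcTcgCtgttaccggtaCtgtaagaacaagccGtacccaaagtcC

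In each of these 4 pairs the copy or paralog held more counts than the gene itself, in both libraries. Rps27, a protein of the small subunit, had 244 and 216 counts and Rps27rt had 9457 and 8299 counts, 38.76 and 38.42 times as many. Rpl37, near the exit tunnel, had 3694 and 2290 counts, while 16346 and 10640 were assigned to Rpl37rt. Rpl3, close to the peptidyl transferase centre, had 5270 and 4680 counts, while 55069 and 44054 were assigned to Rpl3-ps1. Both Rpl10l, a retrogene, and its parent Rpl10 were counted, with 6775 and 9417 counts for Rpl10l and 1855 and 2540 counts for Rpl10. The identity of Rpl10 with Rpl10l was 84.7%, and 12.5% of the 50-base words of the Rpl10l coding sequence were found at another annotated gene. For Rpl10 itself this share was 100%. Whether the Rpl10l mRNA was the more abundant of the pair was not tested.

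Across the standard set, a median of 88.9% of the 50-base words of a coding sequence occurred in annotated transcripts of other genes (range 0% to 100%, n = 75), and 71.5% of the 100-base words did. Matching the coding sequences to annotated pseudogenes and intronless genes, with at least 90% identity over at least 50% of the coding sequence, found 691 copies for 70 of the 75 genes. Rpl21 had the most, 55, followed by Rpl7a with 43 and Rpl29 with 42. The copies held 40.7% of the counts of genes and copies together in replicate 1 and 41.3% in replicate 2. In 38 of the 75 genes, 26 of the large and 12 of the small subunit, more than 50% of the counts lay on copies in both libraries. Whether these reads came from the parent mRNA or from a transcribed copy was not tested, and for stretches that are identical it cannot be told apart.

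**Figure D1:**
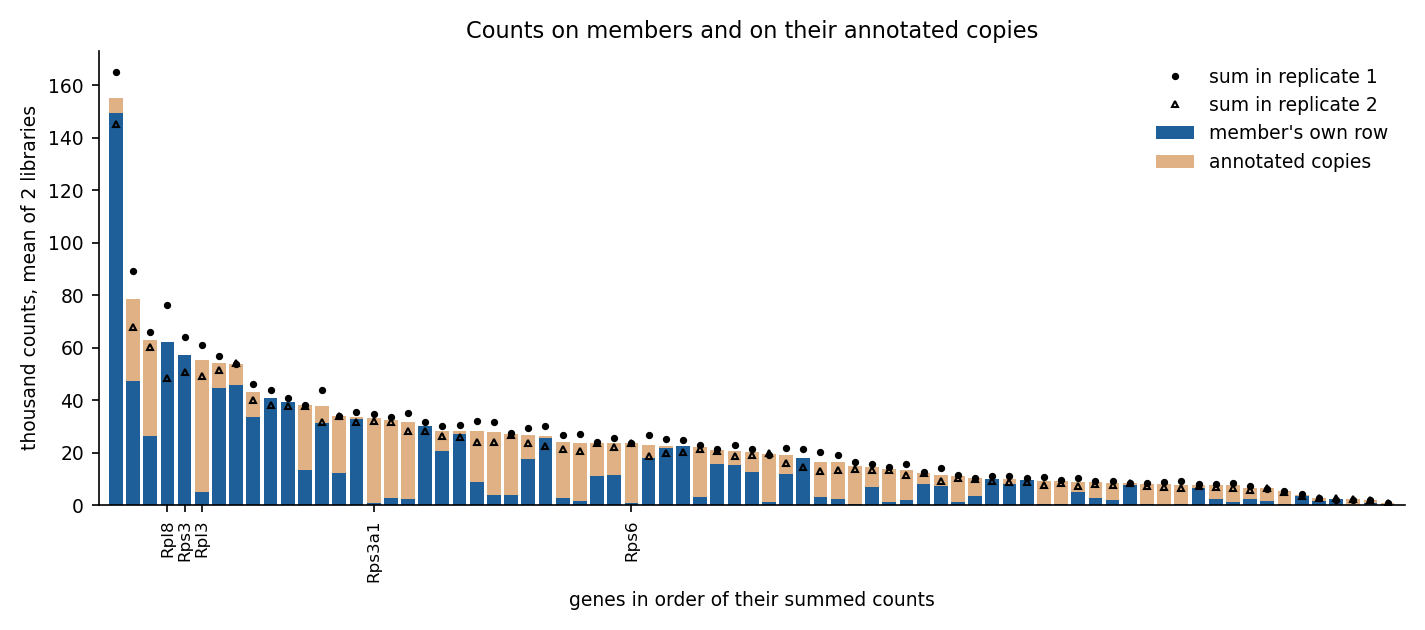
Counts of the 75 standard ribosomal protein genes (blue) and of their annotated copies (tan), as the mean of the 2 libraries (axis in units of 1000 counts), ordered by their sum; circles and triangles give the sum in replicates 1 and 2. Tan holds most of the bar in genes such as Rpl3, Rps3a1 and Rps6, and almost none of it in Rpl8 and Rps3; these 5 genes are named on the axis.

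The split was very uneven in a group of genes whose own count was low. Rps6, the target of S6 kinase in the small subunit, had 653 and 800 counts and its copies 23147 and 23034, of which 22449 and 22400 were on Rps6-ps4, identical to it in coding sequence. Rps29 had 364 and 278 counts and its copies 15880 and 13539. Rps3a1 had 750 and 709 counts and its copies 33975 and 31335, mainly on Rps3a3 with 24724 and 22373 and on Rps3a2 with 8972 and 8732. Rpl24, outside the list for its own 82 and 69 counts, had 17776 and 16136 on copies. In each of these genes the copies held more than 95% of the sum in both libraries.

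Other genes had nearly all counts on their own row. At most 10% of the 50-base words of Rps3, Rpl41 and Rpl8 were found elsewhere, and no annotated copy was found for them. Rps3, at the mRNA entry, had 63940 and 50858 counts. Rpl8, near the peptidyl transferase centre, had 76275 and 48431 counts, and Rpl41, the smallest ribosomal protein, had 24646 and 20139 counts. Per kb of coding sequence these 3 genes lay between 2103 and 4282 CPM in replicate 1 and between 1511 and 3511 in replicate 2, above the upper quartile of the 75 genes in both libraries (1327 and 992). The values of 4282 and 3511 were those of Rpl41, whose coding length of 138 bases is the shortest of the members. Counts fall on the whole mRNA, and per kb of merged exons Rpl41 was not among the 5 highest.

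On their own rows, the 87 genes spanned a wide range of levels. Levels were taken as CPM per kb of merged exons, and since the 100-count minimum helped to choose the genes, they are given as a description. The median was 69.7 in replicate 1 and 63.5 in replicate 2, beside 8.13 and 7.35 for all genes with the minimum count. The 87 genes held 2.86% of all counts in replicate 1 (95% Wilson interval 2.85% to 2.86%) and 2.43% in replicate 2 (2.42% to 2.43%). In a ranking of protein-coding genes by level per kb of main transcript, 20 of the 50 highest were members in replicate 1 and 18 in replicate 2.

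The 5 highest levels per kb of merged exons came from both subunits. Rpl4 (ENSMUSG00000032399; chr9:64173375-64178666), which reaches into the exit tunnel, had 1897 in replicate 1 and 1678 in replicate 2, a mean of 1788 ± 155 (SD, n = 2). Rplp1 (ENSMUSG00000007892; chr9:61913284-61914542), of the acidic stalk that recruits elongation factors, had 1513 ± 361 (SD, n = 2). Rpl8 (ENSMUSG00000003970; chr15:76904078-76906314) had 1101 ± 345 (SD, n = 2). Rpl32 (ENSMUSG00000057841; chr6:115805505-115808747) had 1016 ± 100.2 (SD, n = 2) and Rps15 (ENSMUSG00000063457; chr10:80292453-80294114), at the decoding site, had 982 ± 195 (SD, n = 2). All 5 were higher in replicate 1. In this order, each gene and the next had values over the libraries that overlapped.

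The 5 lowest levels were those of Rps13 (2.28 ± 0.108 (SD, n = 2)), Rpl29 (2.37 ± 0.579 (SD, n = 2)), Rpl34 (3.03 ± 0.586 (SD, n = 2)), Rpl10-ps3 (5.1 ± 0.076 (SD, n = 2)) and Rps27 (5.3 ± 0.443 (SD, n = 2)). Each of these had 90% or more of its 50-base words at other genes, except Rpl34 with 72.2%. With copies added, the sums came to 5378 and 5042 counts for Rps13, 8424 and 7456 for Rpl34, and 2122 and 2315 for Rpl29. The mRNAs of the cytosolic ribosome thus sat at both ends of the range when read from single rows.

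The level of a standard gene on its own row was lower where more of its coding sequence was shared. Per kb of coding length, genes with up to 10% of their 50-base words elsewhere (n = 4) had a median of 2237 and 1595 in replicates 1 and 2. Genes with 10% to 50% (n = 8) had 1687 and 1396, genes with 50% to 90% (n = 26) had 575 and 481, and genes with over 90% (n = 37) had 104 and 95.2. The rank correlation of level with the share of words elsewhere was -0.74 and -0.73 (Spearman, 75 genes, which share both libraries, the same annotation and the same counting). With the counts of copies added, it was -0.53 and -0.51, and the median of the last class rose to 820.0 and 768. The large and small subunits showed nearly the same correlation on their own rows, -0.73 and -0.74 in replicate 1. With copies added, it was -0.60 for the large and -0.36 for the small subunit in replicate 1, and -0.60 and -0.31 in replicate 2.

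**Figure D2:**
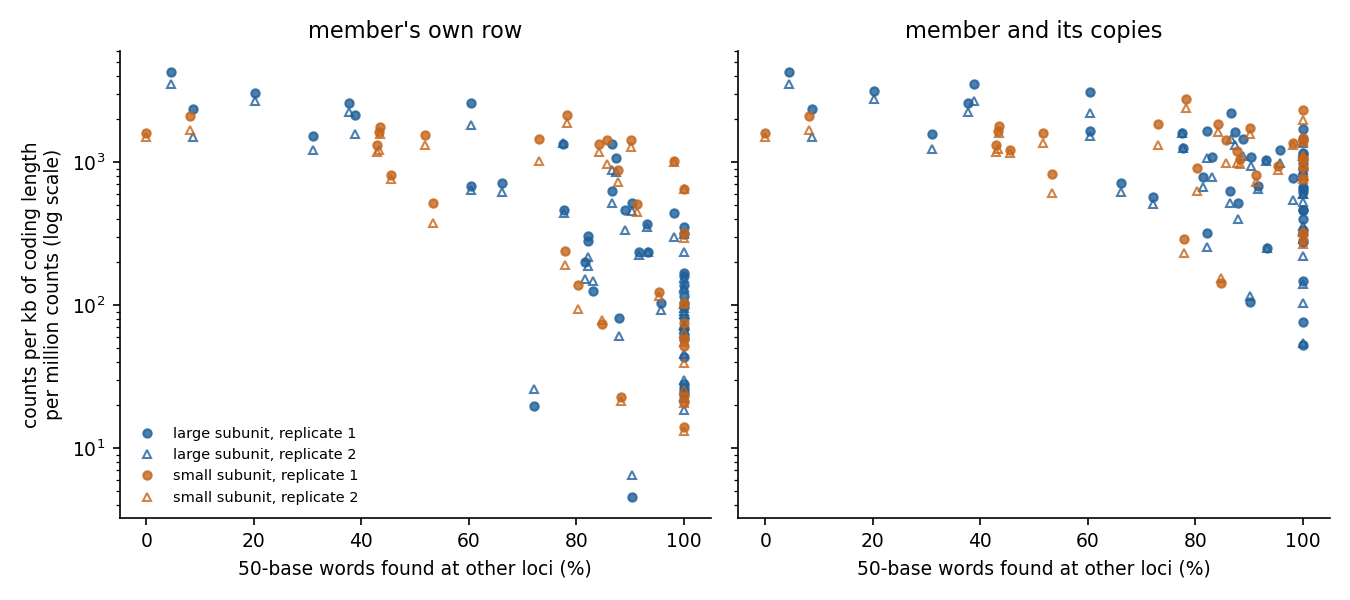
Level of the 75 standard genes, in CPM per kb of coding length (log scale), against the percent of 50-base words of the coding sequence found at other loci, on the gene's own row (left) and with the counts of its copies added (right). Blue is the large and orange the small subunit, circles are replicate 1 and triangles replicate 2. The own-row levels fall from about the top of the axis to under 10 at the right, and after adding copies the genes lie above 50.

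Adding the copies also narrowed the set. The standard deviation of the log2 level over the 75 genes went from 2.30 to 1.27 in replicate 1 and from 2.19 to 1.19 in replicate 2. The ratio of the upper to the lower quartile went from 16.3 to 2.52 and from 11.9 to 2.52. Some genes stayed low with their copies, among them Rpl27 (52.4 and 54.3 CPM per kb of coding length), Rpl10 (76.8 and 103), Rpl29 (106 and 116), Rps12 (143 and 156) and Rpl36a (148 and 141). For Rpl10 and Rpl36a the coding paralogs Rpl10l and Rpl36al held more counts than the gene itself, and they are not among the copies by the rule of 90% identity.

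On their own rows the median level of the small subunit genes lay above that of the large subunit genes, while their ranges overlapped. The median level per kb of merged exons was 54.7 for the large and 125 for the small subunit in replicate 1, a ratio of 2.28, and 53.6 against 94.6 in replicate 2, a ratio of 1.77. For the 75 standard genes per kb of coding length, the medians were 235 against 582 (2.47) and 217 against 547 (2.52). With copies added these became 996 against 1264 (1.27) and 807 against 1118 (1.39). The gap between the subunits was therefore smaller once copies were counted, in both libraries. The large subunit genes had 480 copies and the small subunit genes 211, and copies held 44.0% and 44.4% of the counts of the large against 35.3% and 36.5% of those of the small subunit. On own rows per kb of coding length, the lower quartiles of the standard genes were 81.7 for the large and 82.2 for the small subunit in replicate 1. In replicate 2 they were 87.6 and 82.7. The highest level was that of a large subunit gene in both libraries, 4282 against 2159 and 3511 against 1881. Genes of a subunit are not replicates, so no test was made of the gap between the medians.

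Between the libraries, the ribosomal protein genes moved little. The log2 ratio of replicate 1 over replicate 2, after scaling replicate 2 by the TMM factor of edgeR with a pseudocount of 1, had a median of 0.066 over the 87 genes (quartiles -0.080 and 0.21), beside -0.0062 over the 13005 genes with the minimum count (quartiles -0.34 and 0.41). Their interquartile range was 0.29, against 0.75 for all genes. Replicate 1 was higher for 53 of the 87 genes, or 60.9%, where 49.6% of all genes were higher. At least 25% more scaled counts in replicate 1 than in replicate 2 were found for 12 genes, beside 29% of all genes, and at least 25% more in replicate 2 for 14 genes, beside 26.3% of all genes. Past 1.5-fold there was 1 gene higher, where 18.6% of all genes were, and there were 5 lower, where 12.9% of all genes were. These shares of members were below those of all genes in each of the 4 counts. The counts are nested, since a gene past 1.5-fold is also past the limit of 25%. All genes were not matched to the members in level, with medians of 8.13 and 69.7 per kb of merged exons in replicate 1. The split of 53 higher and 34 lower depends on the scaling, since scaling by total counts gave 67 and 20, with 4 genes higher and 0 lower past 1.5-fold. Scaling by total counts also shifted the median of all genes by 0.12, to 0.11. The shares of all genes above are for TMM and cannot be set beside the counts under total scaling. In bulk RNA, fewer cells of a type and less RNA per cell cannot be told apart.

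**Figure D3:**
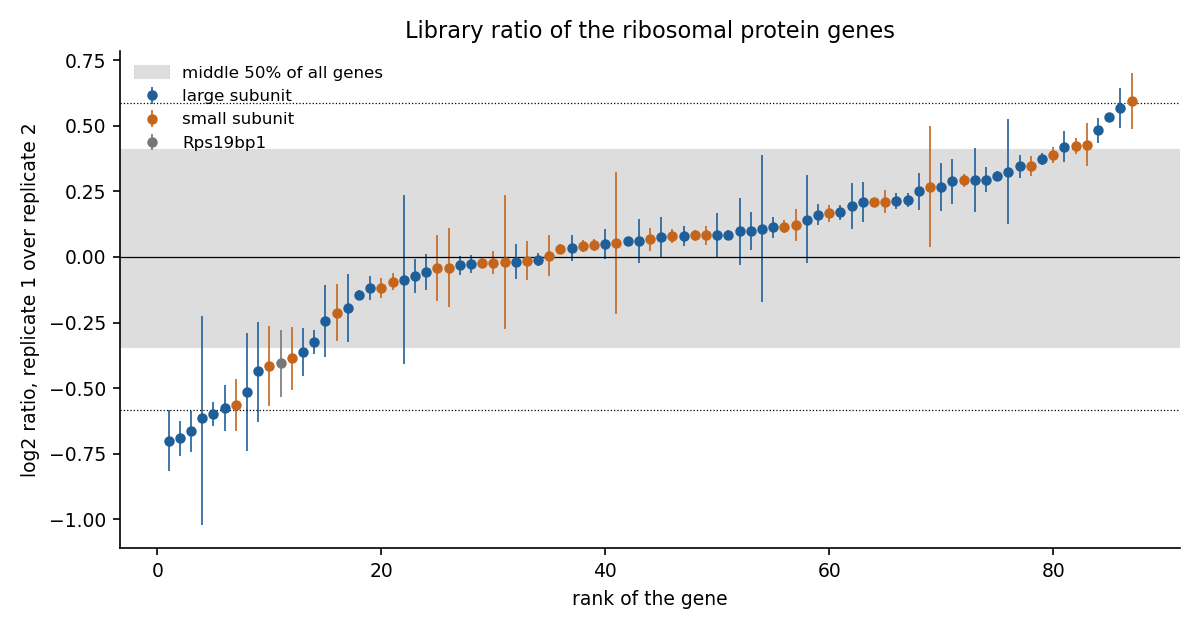
Log2 ratio of replicate 1 over replicate 2 for the 87 genes in rank order, with exact 95% counting intervals; blue is the large subunit, orange the small subunit, grey Rps19bp1. The grey band is the middle 50% of all genes (-0.34 to 0.41), dotted lines mark 1.5-fold, and most of the genes sit inside the band.

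The 5 genes with the highest ratios are given with their exact 95% intervals, which cover counting error only, since reads without molecular identifiers are not independent molecules. Rps16 (ENSMUSG00000037563; chr7:28350652-28353155), whose tail reaches the P site, had 1909 counts in replicate 1 and 1163 in replicate 2, a log2 ratio of 0.59 (0.49 to 0.70). Rpl37 had 3694 counts in replicate 1 and 2290 in replicate 2, a ratio of 0.57 (0.49 to 0.64). Rpl8 (ENSMUSG00000003970; chr15:76904078-76906314) had 76275 counts in replicate 1 and 48431 in replicate 2, a ratio of 0.53 (0.52 to 0.55). Rpl39 (ENSMUSG00000079641; chrX:37082520-37085402), a small protein of the tunnel exit, had 0.48 (0.43 to 0.53), and Rps10 (ENSMUSG00000052146; chr17:27630418-27636669), of the beak of the small subunit, had 0.43 (0.34 to 0.51). All 5 intervals lay above 0, and with copies added the ratio was 0.28 for Rps16, 0.51 for Rpl37, 0.48 for Rpl39 and 0.41 for Rps10, while Rpl8 had no copy.

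The 5 lowest ratios belonged to the large subunit list, and 3 of the 5 were not standard genes. Rpl28 (ENSMUSG00000030432; chr7:4792874-4795066) had 1002 counts in replicate 1 and 1496 in replicate 2, a log2 ratio of -0.70 (-0.82 to -0.58). Rpl36al (ENSMUSG00000049751; chr12:69182731-69184083), a paralog of Rpl36a, had 3087 and 4578 counts and a ratio of -0.69 (-0.76 to -0.62). Rpl39l (ENSMUSG00000039209; chr16:10170226-10174911), a paralog of Rpl39 best known from male germ cells, had 2218 and 3229 counts and a ratio of -0.66 (-0.74 to -0.59). Rpl29 had 92 and 130 counts and a ratio of -0.62 (-1.02 to -0.22), the widest interval of the 5. Rpl10l (ENSMUSG00000060499; chr12:66283379-66284401), a retrogene best known from male germ cells, had 6775 and 9417 counts and a ratio of -0.60 (-0.64 to -0.55).

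Several of the low ratios lay nearer to 0 or above it once copies were added. Rpl28 went from -0.70 to 0.046, Rpl34 from -0.51 to 0.054 and Rpl30 from -0.36 to 0.35. Rps27a, which is made as a fusion with ubiquitin, went from -0.56 to -0.17 and Rps6 from -0.41 to -0.12, both still under the lower quartile of the 75 standard genes with copies, -0.026. In these genes the own row and the copies moved in different directions or by different amounts. For Rpl30 the own row held 1801 and 2129 counts and the copies held 13909 and 9163. Rpl10 stayed low, at -0.58 on its own row and -0.54 with copies. Over the 75 standard genes, the summed counts had a median ratio of 0.084, with 53 higher and 22 lower in replicate 1. Of all genes on their own rows, 49.6% were higher. None of the 75 sums passed 1.5-fold in either direction. On their own rows 1 of the 75 was higher and 2 were lower by that fold, beside 18.6% higher and 12.9% lower of all genes. These shares of all genes are for single rows and are not a like measure for sums with copies.

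By subunit, the median ratio was 0.081 for the large (32 higher, 21 lower) and 0.053 for the small subunit (21 higher, 12 lower), a difference of 0.027. It was not tested, and with copies added, over the 75 standard genes, it was 0.091 (0.14 for the large and 0.044 for the small subunit). Of the large subunit, 7 genes were at least 25% higher in replicate 1 and 10 in replicate 2, and of the small subunit 5 and 3, beside 29% and 26.3% of all genes. The 12 genes outside the standard set had a median of -0.21, with 5 higher and 7 lower and 3 of them lower by 1.5-fold or more, beside 12.9% of all genes. Of all genes, 49.6% were higher in replicate 1 by any amount.

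The genes were also grouped by their place in the ribosome. The stalk, the flexible arm that binds elongation factors, comprised Rplp0 (-0.012), Rplp1 (0.37), Rplp2 (0.11) and Rpl12 at its base (0.083), with a median log2 ratio of 0.098. Rplp1 had 36812 and 26088 counts, Rplp0 27157 and 25153 counts and Rplp2 10379 and 8821 counts. Rpl5 (0.075) and Rpl11 (-0.19), which bind 5S rRNA and in free form inhibit Mdm2, had most counts on copies: Rpl5 had 3037 and 2648 counts and its copy Gm15500 29941 and 28618, and Rpl11 had 967 and 1017 counts and its copy Gm10288 11258 and 10379. With copies, their ratios were -0.046 and 0.0058.

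Around the tunnel exit, 9 of 11 genes were higher in replicate 1 and 2 lower, where 49.6% of all genes and 60.9% of the 87 members were higher. The median of the 11 was 0.21, with a range from -0.074 for Rpl19 to 0.57 for Rpl37. Of the 3 genes near the peptidyl transferase centre, Rpl8 was at 0.53, Rpl3 at 0.049 and Rpl10 at -0.58. On the small subunit, the genes of mRNA entry and decoding were Rps15 (0.29), Rps2 (0.21), Rps3 (0.21) and Rps23 (-0.043). Of these, Rps23 had 1047 and 991 counts on its own row and 17868 and 18784 on copies. At the mRNA exit and E site, Rps26 had 0.39, Rps14 0.12 and Rps28 0.004. The 2 genes of the beak differed, with Rps10 at 0.43 and Rps12 at -0.21.

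Of the 10 genes listed as mutated in Diamond-Blackfan anaemia, an inherited failure of red cell production, 7 were higher in replicate 1 and 3 lower, with a median of 0.17. Of all genes 49.6% were higher, and of the 87 members 60.9%. Rps19 had 13725 and 9923 counts (0.35), Rps24 35926 and 31194 counts (0.082) and Rpl15 8050 and 6030 counts (0.29). At least 25% more was found in replicate 1 for 3 of them and in replicate 2 for 0, beside 29% and 26.3% of all genes. The shares of these small lists are descriptions, and nothing is called particular to them.

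Ratios on chromosome 15 were higher than elsewhere. The 497 genes there with the minimum count had a median ratio of 0.56, against -0.026 elsewhere. Its 5 genes of the list, with Rps19bp1 among them, were split. Rpl37 (0.57) and Rpl8 (0.53) lay near the median of the chromosome, Rpl3 lay at 0.049, and Rpl30 (-0.36) and Rps19bp1 (-0.40) lay below 0. With copies, whose most counted members lie on the X chromosome for Rpl3 and on chromosome 11 for Rpl30, Rpl3 was at 0.19 and Rpl30 at 0.35. The number of chromosomes in each library was not tested. Without the 5 genes the median over the other 82 was 0.071.

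Paralog pairs gave a mixed picture. Rpl39 and Rpl39l share no 50-base word of the Rpl39l coding sequence and moved in opposite directions, 0.48 against -0.66, so that Rpl39l had 0.259 times the counts of Rpl39 in replicate 1 and 0.573 times in replicate 2. Rpl10 and Rpl10l had like ratios, -0.58 and -0.60, and Rpl10l held 3.65 and 3.71 times the counts of Rpl10. Rpl36al held 3.73 and 5.09 times the counts of Rpl36a. These are ratios of single rows, and 100% of the 50-base words of Rpl10 and of Rpl36a were found at other genes. For Rpl36al the share was 81.4%. With copies Rpl36a had 1958 and 1862 counts, beside 3087 and 4578 on the Rpl36al row. Rpl22, whose paralog Rpl22l1 is known to be repressed by it, had 24448 and 19335 counts, and Rpl22l1 had 2359 and 1893 counts, with ratios of 0.22 and 0.20. Rpl7 had 45353 and 46105 counts and Rpl7l1 6766 and 7785 counts. Rps27l, a p53 target, had 4682 and 3955 counts, 19.2 and 18.3 times those on the Rps27 row, but fewer than Rps27rt. Rps4x had 46794 and 42131 counts and its pseudogene Rps4l 11972 and 10602. The muscle paralog Rpl3l was outside the list, with 130 and 33 counts.

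Ribosomal proteins whose symbols lie outside the name pattern were counted as well. Rack1, a signalling scaffold on the small subunit, had 99119 and 82511 counts (0.14) and Rpsa 37412 and 33121 counts (0.054). Fau, fused to a ubiquitin-like protein, had 487 and 465 counts on its own row (-0.055) and 13460 and 11282 on its copy Gm9843.

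Mitochondrial ribosomal proteins and ribosome biogenesis factors had lower medians than the cytosolic ribosomal proteins. Of 75 mitochondrial ribosomal proteins with the minimum count, 18 were higher and 57 lower in replicate 1, with a median of -0.25, where 49.6% of all genes were higher. Of these, 11 were lower by 1.5-fold or more, a share near the 12.9% of all genes. Of 38 ribosome biogenesis factors, 1 was higher and 37 lower, with a median of -0.62, and 23 were lower by 1.5-fold or more, beside 12.9% of all genes. Among these, Ncl (nucleolin) had 77108 and 143450 counts (-1.02), Heatr1 4721 and 10872 counts (-1.33), Nhp2 2077 and 4107 counts (-1.11) and Polr1b, of RNA polymerase I, 3958 and 7716 counts (-1.09). The cytosolic ribosomal protein genes had a median of 0.066.

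Of the 10 genes that control ribosomal protein mRNAs, 9 were lower and 1 higher, with a median of -0.29, where 49.6% of all genes were higher. Myc, on chromosome 15, had 128 and 569 counts (-2.27), Mycn 5291 and 7874 counts (-0.70), Mtor 4539 and 4976 counts (-0.25) and Larp1 18718 and 19069 counts (-0.15). The 14 translation factors and partners known for TOP mRNAs had a median of 0.11, 9 higher and 5 lower, beside the same 49.6% of all genes. This list was not split by chromosome. Of all genes on chromosome 15, where Pabpc1 lies, 86.5% were higher, with a median of 0.56. Eef2 had 182865 and 132858 counts (0.34), Eef1a1 529425 and 469053 counts (0.052), Pabpc1, on chromosome 15, 107389 and 66648 counts (0.57), and Npm1, which also acts in ribosome assembly, 55329 and 86856 counts (-0.77). None of these lists was tested against the others.

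**Figure D4:**
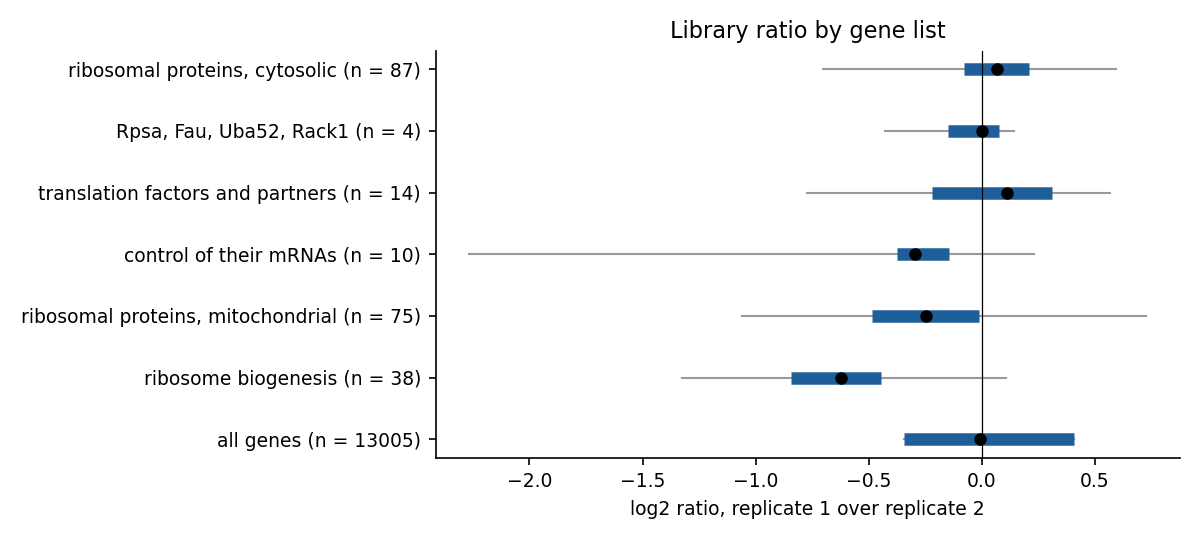
Library ratio of 7 gene sets on the log2 scale: the black point is the median, the thick bar the quartiles and the thin line the range (not drawn for all genes). The cytosolic ribosomal proteins have a narrow bar around 0.066, while the biogenesis factors centre on -0.62 and the mitochondrial ribosomal proteins on -0.25.

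What the members share in sequence at their start was read from RefSeq promoter windows of GRCm38.p6, from 250 bases before to 50 after the annotated start. A window was found for 63 of the 87 genes and for 55 of the 75 standard genes. The 30-base stretches below begin 10 bases before the annotated start. Capitals mark the longest run of a C followed by at least 4 pyrimidines, where that C lies within 5 bases of that start. Pyrimidines before the C were not counted, so the marked run can be the later part of a longer one, as in Rpl35. The first 6 are shown for their long runs in either subunit, Rps27 and Rps27rt because the copy keeps the run of its parent in part, and Rps3 and Rpl41 because no such run was found in this window.
Rpl27a (chr7:109519185-109519214, plus strand): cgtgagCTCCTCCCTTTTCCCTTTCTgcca
Rpl15 (chr14:18270967-18270996, minus strand): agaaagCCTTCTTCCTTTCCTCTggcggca
Rpl35 (chr2:39005112-39005141, minus strand): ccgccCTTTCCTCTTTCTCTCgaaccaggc
Rps10 (chr17:27635225-27635254, minus strand): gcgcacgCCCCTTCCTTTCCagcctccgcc
Rps18 (chr17:33955646-33955675, minus strand): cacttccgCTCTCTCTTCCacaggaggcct
Rps6 (chr4:86857348-86857377, minus strand): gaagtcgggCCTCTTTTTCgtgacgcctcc
Rps27 (chr3:90213629-90213658, minus strand): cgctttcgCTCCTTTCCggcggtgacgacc
Rps27rt (chr9:114982720-114982749, minus strand): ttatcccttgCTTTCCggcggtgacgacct
Rps3 (chr7:99483690-99483719, minus strand): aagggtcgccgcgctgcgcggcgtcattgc
Rpl41 (chr10:128549149-128549178, minus strand): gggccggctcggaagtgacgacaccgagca

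Such a run was found for 27 of the 55 standard genes (49.1%), 16 of 33 of the large and 11 of 22 of the small subunit, against 21.2% of all 27025 genes with a window and 23.9% of expressed protein-coding genes (mean count of 100 or more). Its length over the 27 genes, counted from the C, had a median of 9 and a range from 5 to 20 bases. With at least 6 pyrimidines after the C, the share was 40.0% against 7.64% of all genes. With that C at exactly the annotated base, whether or not pyrimidines came before it, the share was 23.6% against 3.01%. With the C within 20 bases of the annotated base, it was 83.6% against 53.3%. Of the mitochondrial ribosomal proteins 25% had a run of the first kind, and of the biogenesis factors 19.4%, both near the share of all genes. Annotated starts can lie some bases from the main start of an mRNA, and a gene with several windows was counted if any of them held a run.

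**Figure D5:**
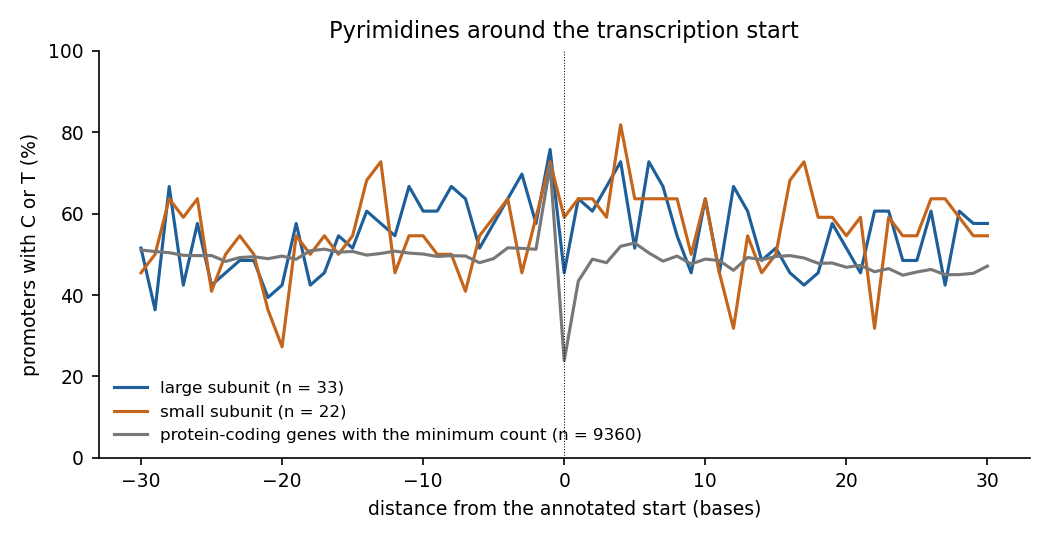
Percent of promoters with C or T at each base from 30 before to 30 after the annotated start (0, dotted line), for 33 large subunit genes, 22 small subunit genes and 9360 expressed protein-coding genes, 1 window for each gene. The 2 ribosomal curves lie mostly above the grey curve from the start to about 8 bases after it.

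Other short motifs were searched in the same windows. CCGGAAG, the core bound by ETS factors such as GABPA, was found on either strand for 23 of 55 standard genes (41.8%), against 9.93% of all genes with a window and 20.7% of expressed ones. The mitochondrial ribosomal proteins (36.8%) and the biogenesis factors (38.7%) had shares near that of the standard genes. AAGATGG, the core of the YY1 motif, was found on either strand for 16.4%, against 7.28% of all and 8.64% of expressed genes, 19.1% of the mitochondrial ribosomal proteins and 16.1% of the biogenesis factors. GGGCGG, a GC box, was found on either strand for 61.8%, against 38.2% of all and 70.6% of expressed genes. TATAAA, searched on the coding strand from 40 to 15 bases before the start, was found for 0 of 55, against 2.41% of all and 1.34% of expressed genes. A match shows only that the letters are present.

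The members were short genes that often hosted small nucleolar RNAs, which guide the modification of ribosomal RNA and are made from introns. The median coding length was 453 bases, against 1434 for expressed protein-coding genes, with a median of 5 exons against 9. A small nucleolar RNA gene lay within 29 of the 87 genes (33.3%), against 1.74% of expressed protein-coding genes. Among standard genes these were 20 of 45 of the large and 9 of 30 of the small subunit. Rpl4 held 5 of them and Rpl13a held 4. The authors ignored reads on overlapping regions, and 35.4% of the merged exon length of Rpl13a and 47.0% of that of Rpl24 overlapped another gene.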

How the data were processed

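RNA of 2 Dicer_KO libraries was analysed. The authors prepared TruSeq libraries of polyA RNA with a reverse-stranded protocol, trimmed the reads, aligned them with STAR (2.4.2a) to mm10, allowing many multiple hits, and counted them with featureCounts (1.4.5-p1) on Ensembl genes, leaving out reads on overlapping regions. How reads with several alignments were treated is not given in the sources used here. The deposited files hold raw counts for each gene. No column of per-sample values was left unused.

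Gene types, positions and lengths came from GENCODE M21 (GRCm38), in which 1081 of the 43629 identifiers, with 0.152% and 0.168% of the counts, had no entry. Replicate 2 was scaled by the TMM factor of edgeR (4.0.16, R 4.3.3), 1.09, and log2 ratios used a pseudocount of 1 with exact (Clopper-Pearson) 95% counting intervals. With totals of 41710122 and 41566184 counts, 3 counts are 0.0719 and 0.0722 CPM. Levels are CPM per kb of merged exons, of the main transcript or of coding length. Those with copies added use coding length. Copies were found among annotated transcripts with blastn (2.17.0), at 90% identity over 50% of the coding sequence, and by shared 50-base and 100-base words. The scaling, ratio and interval steps were tested on simulated data. No test between groups was possible with 1 group. The genes and lists were chosen with earlier results of these data known. The genes named are the 5 highest and 5 lowest in ratio and in level, those just inside and outside the count minimum, those on chromosome 15, and members of the role groups, paralog pairs and other lists. Further genes named beside their copies or start sequences were chosen after their values were seen. Alternatives were other scalings, pseudocounts, count minimums, lengths, folds and runs, each library alone, the standard genes alone, and counts with copies. Values of some genes are not reported here.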

Additional observations from a re-analysis of the deposited data

How the results depend on the processing

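Of 55 alternative values, 32 stayed within the SD over the libraries, the counting interval or 1.5 times a count, and 23 did not. The 32 include the values of single libraries for level, subunit difference in level and share of counts. Those could not fall outside, since each of 2 libraries always lies within their SD of their mean. The median log2 ratio of the members, 0.066, became 0.18 with total counts and 0.19 with raw counts, which raised the median of all genes by 0.12 in both cases, so that relative to all genes it stayed at 0.073. It was 0.19 over the 4 standard genes with few shared words, an alternative chosen after seeing the data, as were all those with copies or coding length. The difference of the subunits in ratio, 0.027, became 0.091 with copies. Their log2 difference in level, small over large, was 1.01, between 0.82 and 1.19 in single libraries, and 0.41 with copies. The median level, 66.6, lay between 63.5 and 69.7 in single libraries, and became 129.6 per kb of main transcript, 58.5 with no filter on low counts, 245 per kb of coding length and 1029 with copies. The share of counts, 2.64%, lay between 2.43% and 2.86% in single libraries and became 4.30% with copies. Past 1.5-fold, 1 gene higher became 4 with total counts, 4 with raw counts and 0 with copies, and 5 lower became 0 with each of these 3. The shares of all genes were not counted again for total or raw counts. With a limit of 25% there were 12 and 14, and at 2-fold 0 and 0. Start runs numbered 13 with the C at the annotated base and 46 with the C within 20 bases of it. Pseudogenes named after a standard gene numbered 239, and copies matched by sequence 691. The match of coding sequences to a genome was not run, since annotated transcripts alone were used. No paired analysis was possible because there is 1 group.

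Each passage has 1 library, so differences between the libraries have no replicate check, and intervals cover counting error only. Levels of single genes are given on their own rows, and the origin of reads on copies was not tested.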
